A study of Mus musculus with 12 samples.

Results

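The comparison of female with male mouse liver at zeitgeber time 22 (ZT22, hours counted from lights on) was examined in 6 of the 12 single-cell libraries of the study. The 3 female and 3 male libraries of that time were taken by the sex and time in their labels, and the codes at the start of the cell names match those labels. All came from wild-type 129S6/SvEv mice whose livers had been perfused with collagenase. A spin enriched the suspension for hepatocytes, and the cells were frozen and thawed before 10x Genomics Chromium v3 libraries were made. No treatment, transgene, diet or age is given for any group, and the labels do not say whether a library is 1 animal, so a p-value measures the spread between these libraries.

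The liver is an organ in which gene expression is known to differ between the sexes. In rodents, pituitary growth hormone is released in pulses in males and more evenly in females, and the liver reads this pattern through the transcription factor STAT5b. Genes of cytochrome P450 enzymes, sulfotransferases and major urinary proteins are well-known examples of genes set by it. ZT22 falls late in the dark phase of a usual light cycle, when mice are active. The deposited rows carry numbers from 1 to 18326 and no gene names, so none of these genes could be looked up, the hepatocyte label could not be checked against marker genes, and the rows are called features and given by number. At most 2 features in each direction are given for the sex comparison, and 3 more where a further test singled them out.

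The 6 libraries held 14155 cells and 46122514 unique molecular identifiers (UMIs, 1 per captured transcript), between 6677296 and 10494748 UMIs and between 1861 and 2870 cells a library. Of the 14134 distinct cell barcodes, 21 occurred in more than 1 of these libraries. One library stood apart. The median intronic fraction of a cell was 0.510 in male replicate 2 and between 0.211 and 0.244 in the other 5. Its median depth of 2290 UMIs was the lowest of the 6, although its shallowest cell had 1661 UMIs, against 727 to 1282 in the others. None of 7 per-library measures separated the sexes by an exact two-sided permutation test, in which 3 libraries against 3 cannot give a p below 0.1. The intronic fraction was 0.222 ± 0.0113 in females and 0.323 ± 0.162 in males (SD, n = 3 each, exact permutation p = 0.3, adjusted 0.8 over the 7 measures), and the difference of -0.101 was -0.00795 without male replicate 2.

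**Figure D1:**
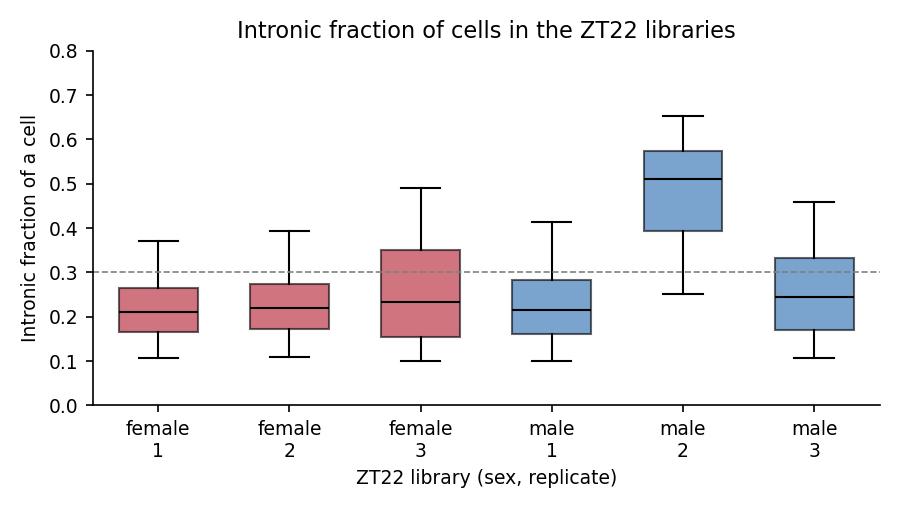
Intronic fraction of the cells of each ZT22 library. Boxes give the quartiles and the median, whiskers the 5th and 95th percentiles of cells, and the dashed line the boundary of 0.3 used below; male replicate 2 has a median of 0.510, and the other 5 lie between 0.211 and 0.244.

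Of the 18326 features, 16040 had a UMI in both sexes at ZT22. A further 1048 were at 0 in every female library only and 606 at 0 in every male library only, and these were left out before testing. Most of them were sparse. Only 11 of those absent in females had at least 10 UMIs in each male library, and 17 of those absent in males had at least 10 in each female library. The features left out, those at 0 in both sexes included, held between 0.219% and 0.273% of the UMIs of the female libraries and between 0.0503% and 0.0790% of the male ones.

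The sexes differed in 387 of the 11671 features that passed a filter on low counts, or 3.32% of those tested (edgeR's quasi-likelihood test on UMI sums per library, Benjamini-Hochberg adjusted p under 0.05). Of these, 226 were higher in females (1.94% of those tested) and 161 higher in males (1.38%). Most differences called in this fit were large, and a smaller part was in further fits given below. A 2-fold or larger change was found in 218 of the 226 and 155 of the 161, which is 3.2% of the tested features together. It was at least 4-fold in 101 and 81, and at least 16-fold in 26 and 31. The smallest called change was 0.86 on the log2 scale in females and 0.85 in males, and the median over all tested features was 0.0028. The 3 female and 3 male libraries did not overlap in any of the 387 features, nor in 25.7% of all tested features.

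The called features made up a small part of the RNA. Those higher in females held 1.475%, 1.71% and 1.87% of the UMIs of female replicates 1, 2 and 3, and 0.261%, 0.308% and 0.383% of the male ones. Those higher in males held 3.79%, 3.11% and 2.82% of the UMIs of the male libraries and 0.446% to 0.495% of the female ones. These shares describe features that were chosen for their difference. The called features were spread over all levels of expression. Among features with a mean of 1 to 10 normalised counts per 1000000 UMIs (CPM), 157 of 4405 were called (3.56%), among those of 10 to 100 CPM 181 of 5942 (3.05%), and among those above 100 CPM 49 of 1323 (3.7%). In the lowest of these classes 104 were higher in females and 53 in males, and in the highest 23 and 26. The median called change was 2.05, 1.64 and 2.69 on the log2 scale in the 3 classes. The fitted changes are least certain in 32 called features, 15 higher in females and 17 in males, which had under 10 UMIs in all libraries of the other sex together.

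**Figure D2:**
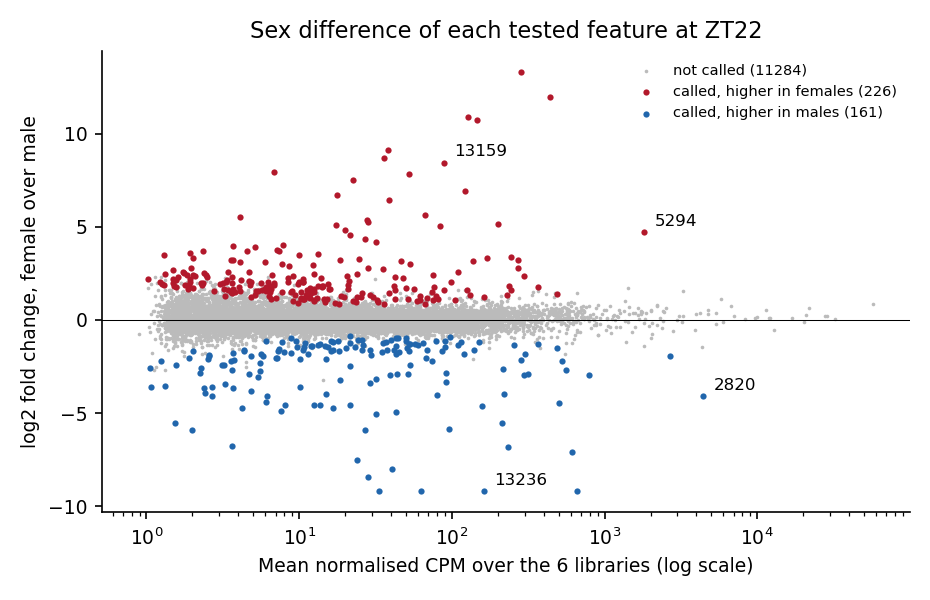
Sex difference of each of the 11671 tested features at ZT22 against its mean level (log scale), with the log2 fold change of females over males on the vertical axis. The 226 features called higher in females and the 161 called higher in males occur at all levels, and the 4 features described below carry their numbers.

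Male replicate 2 was also the library that differed most from its group in the counts. On log2(CPM + 1), its median distance from the mean of the other 2 male libraries was 0.501 over the tested features, against 0.268 and 0.307 for male replicates 1 and 3 and 0.152 to 0.175 for the female libraries. It was the farthest of the male libraries in 66.2% of the tested features and in 47.0% of the called ones. Without it, edgeR called 700 features, 372 higher in females and 328 higher in males, and 380 of the 387 were among them. The common dispersion, edgeR's squared relative spread between libraries of 1 sex beyond counting error, was 0.0627 with it and 0.0186 without it. The smallest called change was then 0.46 on the log2 scale, and 446 of the 700 changed at least 2-fold. Leaving out other libraries lowered the number of called features. It fell to 220, 166 and 173 without female replicate 1, 2 and 3 and to 208 without male replicate 1, while it was 364 without male replicate 3.

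The comparison was repeated in cells with an intronic fraction under 0.3. These were 1819, 2133 and 1305 cells of female replicates 1, 2 and 3, and 1480, 373 and 1920 of the male ones. The 373 cells of male replicate 2 were 13.96% of that library, had a median intronic fraction of 0.267, against 0.177 to 0.205 in the other 5, and held 788284 UMIs, against at least 4483113. The test called 544 of 11063 features (4.92%), 320 higher in females (2.89%) and 224 in males (2.02%), with a common dispersion of 0.0294. Of the 544, 405 changed at least 2-fold. Without male replicate 2 the number called was 524, so here the library moved it little. It was 345 without female replicate 2 and 257 without male replicate 1. In cells with a fraction of 0.3 or more, 309 of 9460 features were called (3.27%), 180 higher in females (1.9%) and 129 in males (1.36%).

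**Figure D3:**
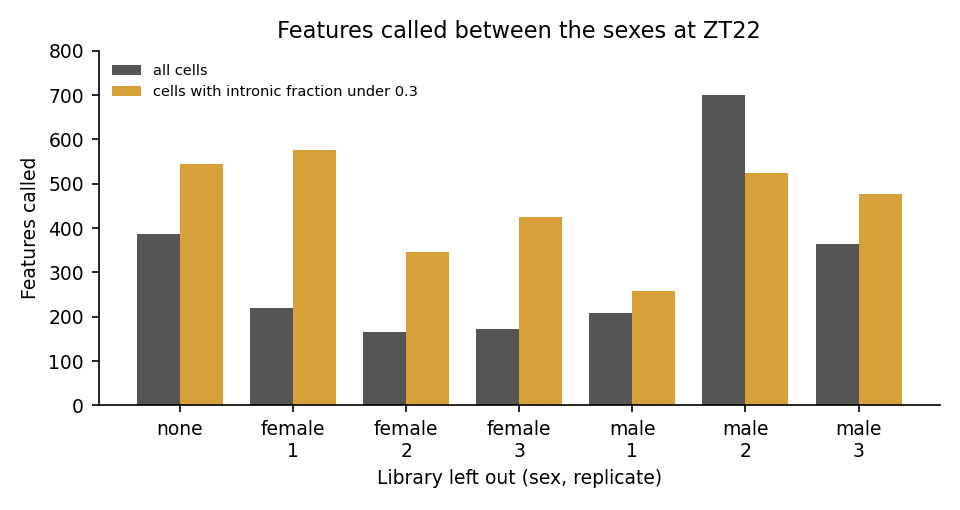
Number of features called between the sexes at ZT22 with all 6 libraries (none) and with each library left out, in all cells and in cells with an intronic fraction under 0.3. In all cells the bars run from 166 to 700, the highest without male replicate 2; in the cells under 0.3 they run from 257 to 577.

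Features qualified for a closer description if they were called in both cell sets and the female and male libraries did not overlap. They also needed at least 10 CPM in the higher sex and at least 10 UMIs over the libraries of the lower sex. In all 240 qualified, 133 higher in females and 107 in males. In each direction the one with the largest change and the most abundant one with at least a 2-fold change are given.

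Feature 13159 had the largest female excess of the 133 that qualified. Over all tested features the log2 fold changes ran from -9.21 to 13.33, and the features beyond those given here did not meet the criteria. Its level was 194, 188 and 151 CPM in female replicates 1, 2 and 3, and 0, 0.242 and 1.05 CPM in the male ones. All female libraries lay far above all male ones, and the male value rests on 13 UMIs, against 3654 in females. The fitted log2 fold change came to 8.45 ± 0.58 (SE, edgeR adjusted p = 6.6e-05). In cells with an intronic fraction under 0.3 it was 8.41 ± 0.41, with 0, 0 and 6 UMIs in male replicates 1, 2 and 3. Feature 13159 was found in a minority of cells: 30.9%, 31.9% and 30.2% of the cells of the female libraries had a UMI of it, and 0%, 0.0749% and 0.383% of those of the male ones. The exact 95% binomial intervals, which cover counting error only, ran from 28.9% to 32.9% in female replicate 1 and from 0.192% to 0.685% in male replicate 3. For the 0 of 1861 cells of male replicate 1 the interval reaches 0.198%. It bears on cells with a UMI, not on cells that hold the transcript.

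Feature 5294 was the most abundant of the features at least 2-fold higher in females, and the 53rd most abundant of all tested. It stood at 2697, 4165 and 3679 CPM in female replicates 1, 2 and 3. In males it stood at 132, 41.7 and 225 CPM, with male replicate 2 the lowest. The difference was 4.72 ± 0.63 on the log2 scale (SE, edgeR adjusted p = 0.0034), a 26.4-fold difference. Nearly every female cell had a UMI of it, 99.4%, 99.8% and 99.5% in the 3 libraries, with a highest count of 110 UMIs in 1 cell. In the male libraries 29.2%, 11.2% and 45.5% of the cells had one. With every cell thinned to 1500 UMIs and shallower cells left out, the shares were 93.9%, 97.9% and 97.3% in females and 15.1%, 7.15% and 26.9% in males, in the same order of libraries within each sex.

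Feature 13236 showed the largest male excess of the 107 that qualified. It was counted at 357, 263 and 349 CPM in male replicates 1, 2 and 3 and at 0.669, 0.527 and 0.424 CPM in the female ones. The 3 male libraries were close to each other, and all female UMIs together numbered 11, against 8233 in males. The fitted log2 fold change came to -9.20 ± 0.37 (SE, edgeR adjusted p = 4.1e-06), and -9.15 ± 0.31 in the cells under 0.3. In males 63.8%, 51.4% and 62.4% of cells had a UMI of feature 13236, and 39.1%, 36.9% and 39.2% after thinning. In females 0.187%, 0.154% and 0.149% did, from 4, 4 and 3 cells.

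Feature 2820 was the most abundant feature with at least a 2-fold male excess and the 24th most abundant of all. Its level was 13000, 3824 and 8371 CPM in male replicates 1, 2 and 3, so the male libraries differed among themselves by more than 3-fold, with male replicate 2 lowest. The female libraries stood at 458, 647 and 373 CPM. The difference was -4.09 ± 0.55 on the log2 scale (SE, edgeR adjusted p = 0.0036), a 17.0-fold difference, and -4.29 ± 0.37 in the cells under 0.3. At least 99.96% of the cells of each male library had a UMI of it. So did 47.4%, 56.3% and 53.8% of the female cells, and 32.3%, 43.2% and 37.4% after thinning. No cell type could be named, and the share of cells that hold a UMI from free RNA was not measured.

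**Figure D4:**
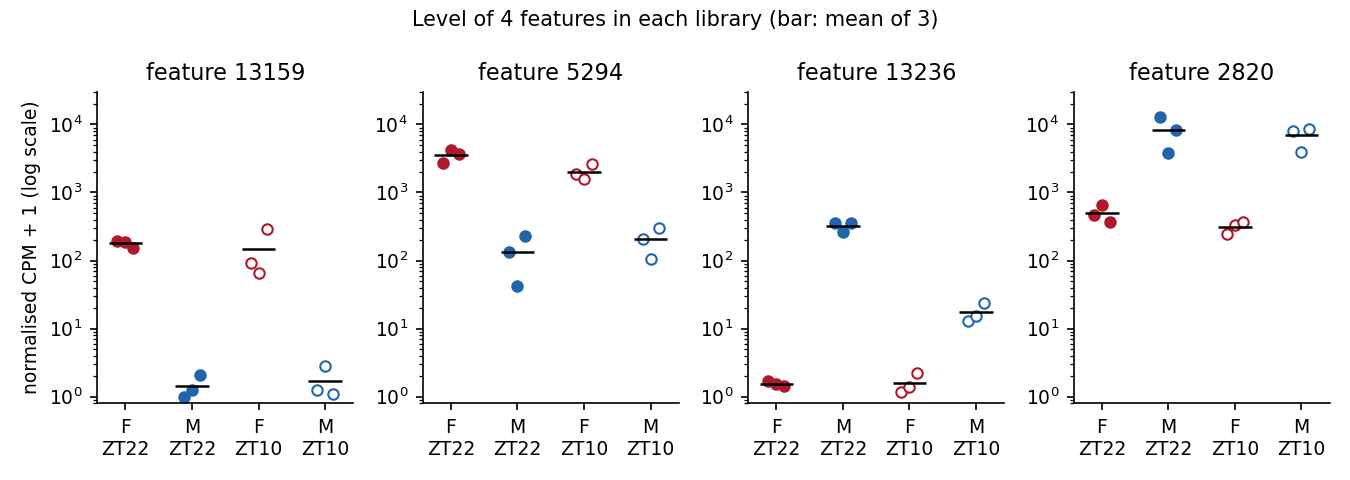
Normalised CPM + 1 (log scale) of 4 features in each library, females (F) in red and males (M) in blue, ZT22 filled and ZT10 open, with the mean of 3 libraries as a bar; the CPM of the 2 times were normalised separately. The sexes do not overlap at ZT22, by the choice of the 4 features, nor at ZT10. Feature 13236 stands at 263 to 357 CPM in ZT22 males and at 12.04 to 22.96 in ZT10 males.

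The codes of the libraries begin with a number that is not explained in the labels. Female replicate 1 shares it with male replicate 1, female replicate 2 with male replicates 2 and 3, and female replicate 3 shares it with no male library. The 4 features were chosen to have no overlap of the sexes. Their same direction within both codes that hold both sexes follows from that choice and says nothing about the code. With the code as a block edgeR called 119 features, 66 higher in females and 53 in males, 116 of them among the 387, in a fit that leaves female replicate 3 without a partner.

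The same 4 features were then followed through kinds of cells within each library, in UMIs per 1000000 without further normalisation. The total includes mitochondrial UMIs, so a higher mitochondrial share by itself lowers the level of other features. Feature 13159 in females was at 240 ± 37.9 in cells under the median mitochondrial share of 12.98% and at 124 ± 16.5 in those at or above it (SD, n = 3). Feature 13236 in males was likewise at 408 ± 45.7 and 276 ± 14.1. Feature 5294 was at 3986 ± 1103 and 2985 ± 694 in females and at 181 ± 120 and 94.9 ± 57.9 in males. Feature 2820 ran the other way in females, with 271 ± 50.3 below the median and 587 ± 153 above it, and in males at 7238 ± 2350 and 9088 ± 4434. Male replicate 2 was the only male library in which its level was not higher in the mitochondria-rich cells, with 4757 and 4601. Each of the 4 features was called between the sexes in the mitochondria-poor, the mitochondria-rich, the UMI-poor and the UMI-rich cells. They were chosen as called in all cells of these libraries, so these calls are no independent support.

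Whether the sex difference itself depended on the kind of cell was tested within libraries. Between cells with an intronic fraction under 0.3 and the others, edgeR called 2 of 11370 features (0.0176%), with 397 at an unadjusted p under 0.05. Both calls were lost without 1 cell of male replicate 3, although the differences kept their sign. Between mitochondria-poor and mitochondria-rich cells it called 1 of 11310 features (0.00884%), with 512 at an unadjusted p under 0.05. Without male replicate 2 these counts were 11 and 11, and the second was 0 without female replicate 1, 2 or 3 or male replicate 3. None of the 4 features above was called in either test. The smallest unadjusted p among them was 0.0060, for feature 2820 by mitochondrial share, with a difference of log2 fold changes of 0.93 ± 0.28 (SE, edgeR adjusted p = 0.92).

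The mitochondrial genome encodes subunits of the respiratory chain. Its 13 features were read from the deposited mitochondrial percent, which their summed UMIs gave in every cell. All 13 were tested and 0 were called, against 3.32% of all features, with a smallest edgeR adjusted p of 0.55, 0 at an unadjusted p under 0.05, and 0 called by DESeq2 or limma-voom. Their log2 fold changes lay between -0.43 and 0.26, with a median of 0.10 and 4 of 13 below 0. In the cells with an intronic fraction under 0.3 the median was -0.10 and 0 were called. As a share of all UMIs the 13 features made up 16.9%, 16.8% and 12.1% in female replicates 1, 2 and 3 and 15.4%, 16.9% and 13.6% in the male ones, so the sexes overlapped.

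Some features called between the sexes stood next to each other in the deposited table, whose order is not explained in the files. A called feature of the same direction was directly beside 43 of the 161 male-higher features (26.7%) and 37 of the 226 female-higher ones (16.4%). Neighbours were counted from each called feature, so a pair of adjacent called features enters the counts below from both sides. Of the tested neighbours of the 161 male-higher features, meaning the rows directly before and after, 56 of 264 (21.2%) were themselves called higher in males, against 1.38% of all tested features. For the 226 female-higher features it was 40 of 355 neighbours (11.3%), against 1.94%. Neighbours called in the opposite direction numbered 6 in each case, which are the same adjacent pairs seen from either side. They made up 2.27% of the neighbours of the male-higher features, against 1.94% of all tested features. Beside the female-higher ones they made up 1.69%, against 1.38%. Without male replicate 2 the neighbour shares were 21.2% for males and 12.1% for females, against 2.74% and 3.11% of the features tested there. In the cells under 0.3 they were 19.8% and 12.02%, against 2.02% and 2.89%. The longest unbroken run had 6 male-higher features, and the longest female-higher run 3.

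The largest male-higher block, allowing gaps of up to 10 rows, spanned 24 rows and held feature 2820. Of 21 tested features in it, 17 were called higher in males, by 1.14 to 9.18 on the log2 scale, and 1 was called higher in females. The 17 together held 1.755%, 0.715% and 1.15% of the UMIs of male replicates 1, 2 and 3, and 0.0459%, 0.0689% and 0.0464% of the female ones. The largest female-higher block spanned 18 rows and held feature 13159. Of its 15 tested features 7 were called higher in females, by 1.22 to 8.45, and 1 higher in males. The 7 held 0.108% to 0.115% of the UMIs of female libraries and 0.0117% to 0.0197% of the male ones. Features 5294 and 13236 had no other called feature within 10 rows. The blocks were found in the calls themselves and carry no test, and how the authors' counting treated reads that match more than 1 feature is not given in the sources used here.

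The ZT10 libraries, 3 female and 3 male, share no library with those at ZT22 and were fitted alone in the same way. There 221 of 12126 features were called between the sexes (1.82%), 111 higher in females (0.915%) and 110 in males (0.907%). Of the 387 features called at ZT22, 373 were tested at ZT10. Of these 338 had the same sign (90.6%), against 62.65% of all features tested at both times, and 153 were called at ZT10 as well, with 0 called in the opposite direction. Male-higher features kept their sign in 148 of 154 cases (96.1%) and female-higher ones in 190 of 219 (86.8%). Without male replicate 2, 594 of 678 kept it (87.6%). The median change of the female-higher features was 1.90 at ZT22 and 1.02 at ZT10 on the log2 scale, and that of the male-higher ones -1.94 and -1.60. The features were chosen by their ZT22 values, so a smaller change at ZT10 is not by itself a difference between the times.

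**Figure D5:**
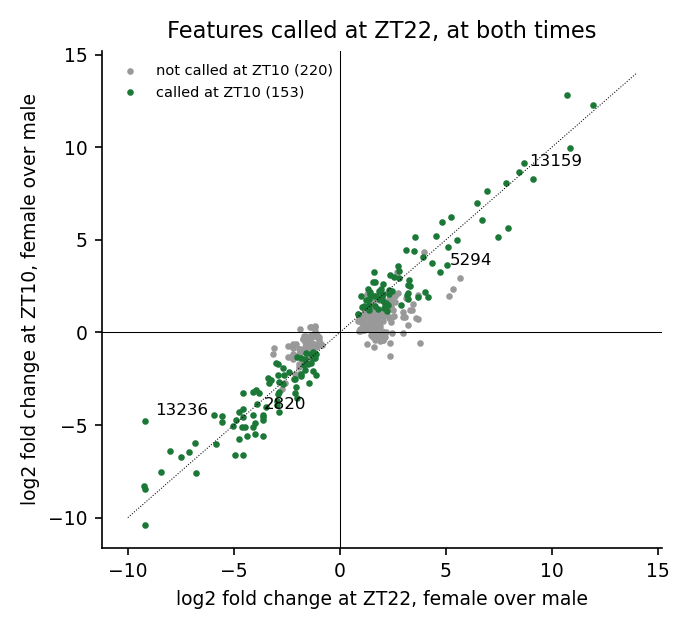
Log2 fold change of females over males at ZT22 and at ZT10 for the 373 features called at ZT22 and tested at both times; the dotted line marks equal values. Of these, 153 were called at ZT10 too (green), and all 153 lie in the quadrants of equal sign.

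Whether the sex difference at ZT22 differed from that at ZT10 was tested over all 12 libraries. No ZT10 library shares the number at the start of its code with a ZT22 library, so time and that number cannot be told apart. edgeR called 0 of 12471 features (0%), with 741 at an unadjusted p under 0.05. DESeq2 gave an adjusted p to only 6423 features and called 12 of them. Among the 373 features the smallest adjusted p was 0.40. Feature 13236 is the one of the 4 on which the tools differed. Its male level was 12.04, 14.3 and 22.96 CPM in ZT10 replicates 1, 2 and 3 and 263 to 357 CPM at ZT22, while the female libraries stayed at 0.178 to 1.204 CPM at ZT10. Its sex difference was -4.80 ± 0.51 at ZT10 and -9.20 ± 0.37 at ZT22. The interaction was -4.44 ± 0.76 (SE, edgeR unadjusted p = 4.1e-05, adjusted p = 0.40). In DESeq2 its unadjusted p was 7.2e-10 and its p adjusted over the 6423 features was 4.7e-06. For features 13159, 5294 and 2820 the adjusted p of the interaction was at least 0.847 in edgeR and at least 0.863 in DESeq2. Feature 5294 differed by 3.29 ± 0.40 at ZT10, feature 13159 by 8.65 ± 0.89 and feature 2820 by -4.46 ± 0.37.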

How the data were processed

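The deposited count table holds raw UMIs of 18326 features in 31003 cells. Per the file headers, the authors' metadata hold the total UMI count of a cell, its detected features, intronic fraction, and mitochondrial and caspase percent. The submitters' processing notes name Cell Ranger 6.1.2, Seurat and mm10. Cell filters, doublet removal, annotation and the denominator of the fraction are not given in the sources used here. Column sums equalled the deposited totals in all 31003 cells. Libraries were taken from the deposited sample names, which match the labels' titles.

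UMIs of all cells were summed per library. No cell was removed, no doublet caller was run and no cell type was assigned. Features at 0 in every library of one sex were left out. The sums of the 6 ZT22 libraries were tested with edgeR 4.0.16 (quasi-likelihood, TMM, filterByExpr, Benjamini-Hochberg threshold 0.05). SE is the log2 fold change divided by the square root of F. CPM are TMM-normalised. Tested features held 99.6% of UMIs. Strata of cells were compared with library as a block, at an intronic fraction of 0.3 and at the median mitochondrial percent. Per-library measures used exact permutation over 20 assignments (scipy 1.17.1). Alternatives were DESeq2 1.42.0, limma-voom (limma 3.58.1), no filter, blocks, thinning and leaving out libraries. The scripts were tested on simulated data. The features given by number follow the rule stated beside them. The members, lists and rules were chosen with earlier results of these data known.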

Additional observations from a re-analysis of the deposited data

Results flagged for a closer look

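The first 3 results concern sex differences that differed between kinds of cells, by a test of that difference within libraries at ZT22, and all 3 features were chosen after their values were seen. The sex difference of feature 5686 was larger by 2.01 ± 0.30 on the log2 scale in cells with an intronic fraction of 0.3 or more (SE, edgeR adjusted p = 0.00025), and that of feature 8374 by 2.64 ± 0.50 (edgeR adjusted p = 0.017). Neither feature was called between the sexes, with edgeR adjusted p-values of 0.57 and 0.54. Feature 5686 was at 63.9, 4.61 and 53.2 CPM in female replicates 1, 2 and 3 and at 12.4, 3.87 and 41.5 in the male ones, and feature 8374 was at 12.7, 0.922 and 8.63 and at 1.95, 1.45 and 7.14 CPM, so the 6 libraries ranked alike in both features except for the 2 lowest. A single cell of male replicate 3, with 1839 UMIs and an intronic fraction of 0.111, held 233 of the 436 UMIs of feature 5686 in that library and 34 of the 75 of feature 8374. Without this cell the difference was 1.07 ± 0.32 (SE, edgeR adjusted p = 0.77) for feature 5686 and 1.91 ± 0.55 (adjusted p = 0.73) for feature 8374, and 0 features were called.

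Feature 10783 had a sex difference of -4.02 ± 0.42, females over males on the log2 scale (SE, edgeR adjusted p = 0.00074), and its difference changed by -2.48 ± 0.30 from mitochondria-poor to mitochondria-rich cells (edgeR adjusted p = 0.023). This call was lost without female replicate 1, 2 or 3 or male replicate 3, when 0 features were called. In females it stood at 12.5, 33.3 and 12.7 UMIs per 1000000 in the mitochondria-poor cells of replicates 1, 2 and 3 and at 0.618, 4.23 and 2.56 in the mitochondria-rich ones, the latter from 3, 23 and 7 UMIs. In males it stood at 235, 189 and 127 and at 149.5, 141 and 108. As a ratio of the strata, each female library changed more than any male one, and as a difference each male library changed by more than the female ones except male replicate 3, which lay within their range.

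The deposited caspase percent entered no comparison. It amounts to 36 UMIs in the 6 ZT22 libraries, 16 in 6752 female and 20 in 7403 male cells, each in a cell of its own, and the shallowest of these 36 cells had 10004 UMIs. Whether the authors removed cells by this percent is not given in the sources used here. The 36 UMIs are therefore not read as the caspase level of either sex.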

How the results depend on the processing

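The count of 387 features stayed within 1.5 times in 10 of 19 settings. It was 599 in DESeq2, 119 with the library code as a block, 204 in cells under the median mitochondrial percent, 107 in cells under the median UMI count, and 166 to 700 without a library. The count of 544 in cells under 0.3 was 319 with the code as a block, 247 when thinned to the smallest library, where only 6303 features were tested, and 257 to 577 without a library. The sex by intronic stratum count of 2 became 4 at a boundary of 0.25, 8 without the filter on low counts, 0 without 1 cell (chosen after seeing the data) and 1 to 11 without a library. By mitochondrial stratum, 1 became 6 without the filter and 0 to 11 without a library. By time, 0 became 12 in DESeq2, where 6423 features had an adjusted p, and stayed 0 with any 1 ZT22 library left out. The cause of these changes was not tested. In cells under 0.3 the female minus male difference changed sign for cell number (495), detected features (7.33) and mitochondrial percent (-0.309). Without a library it ran from -502 to 161.5 for median UMIs and from -0.878 to 1.54 for the mitochondrial share of UMIs. All 76 refits of the 4 features had the main sign and an adjusted p of at most 0.049. The 4 were chosen from calls in these same libraries, which the refits reuse whole or in part, so this is no independent support.

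Same-numbered libraries of the 2 sexes deviated with correlations of -0.059, -0.155 and 0.0132. These values show no pairing by number, but 3 libraries a sex are too few to exclude one. The replicate block gave 272 features in all cells, 503 in cells under 0.3 and 0 by time. With every library paired, the block cannot change the mean difference of a per-library measure. Values such as -217 cells and -0.101 for the intronic fraction were therefore bound to stay the same and say nothing about pairing.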
